A study of Mus musculus with 8 samples.

Results

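The 46 mitosis genes described here were taken by symbol from the 55933 genes of the deposited expression table, all 46 of them protein-coding. They cover the cyclin-CDK switch, the mitotic kinases, the spindle checkpoint, the kinetochore, the spindle motors and the cytokinesis machinery. RNA was sequenced from mammary epithelial cells of 4 control and 4 cKO mice at pregnancy day 14.5, 1 library per mouse, to learn what the loss of the BMP receptor BMPR1a does in the pregnant gland. All mice were females on the C57BL/6 background and the controls were littermates, which the sample titles call WT. The cKO mice carried K14-rtTA, teto-Cre and floxed Bmpr1a, and doxycycline in the drinking water switched on Cre until the tissue was taken. Which of these alleles the control mice carried is not given in the sources used here. Doxycycline is stated for the mice of another experiment of the study, at a younger age, but not for the control mice sequenced. The K14 promoter drives the transactivator in the myoepithelial layer, whereas the libraries hold the whole epithelial preparation after collagenase and hyaluronidase digestion, so cells outside that layer were sequenced too.

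Mitosis is started by cyclin B bound to CDK1, which drives chromosome condensation and spindle assembly. The spindle checkpoint then holds the cell in metaphase until every kinetochore is attached, after which the anaphase-promoting complex (APC/C) destroys cyclin B and securin and the cell divides. The RNAs of most of these genes are made in G2 and M phase and are low in resting cells, so their level in a tissue follows the share of cycling cells. In the mammary gland, alveolar cells proliferate strongly through the first part of pregnancy and then turn to secretion. In bulk RNA, fewer cycling cells and less of each RNA per cycling cell cannot be told apart.

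Values are FPKM, fragments per kilobase of gene length, so levels may be compared between genes. The library size behind them followed the median-of-ratios size factor of each library (ratio 1 in all 8) rather than its reads on genes. Differences are cKO minus control on log2(FPKM + 1), fitted with limma over the 15143 genes with a mean of at least 0.5 FPKM, and 45 of the 46 genes passed this filter. The libraries held 16123108 to 19896988 reads on genes. Bmpr1a itself stood at 8.74 to 11.7 FPKM in the control libraries and at 10.2 to 12.03 FPKM in those labelled cKO (log2 difference 0.13, limma adjusted p = 0.560). By western blot, the paper reports less BMPR1a protein in isolated epithelial cells of cKO mice at the same stage. Here the RNA did not separate the groups, and the exons that the deletion removes are not given in the sources used. Every direction below rests on the labels. In the same libraries, 10 of 12 milk genes were higher in every cKO library than in every control library (6.1% of all genes). Luminal markers summed to 4391 to 5689 FPKM and myoepithelial markers to 1508 to 2186 FPKM per library, so markers of both epithelial layers were present in all 8 libraries.

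Mitosis RNAs did not separate cKO from control epithelium. No member passed limma's test at an adjusted p under 0.05, against 0.892% of all genes tested, and none had an unadjusted p under 0.05, against 16.4% of all genes. Limma-voom on the recovered reads also called 0 members at either threshold. Over all genes, replicates numbered 1 or 2 deviated together in both groups, as did those numbered 3 or 4. With these sets as a block, chosen after seeing the data, limma gave 2 members an unadjusted p under 0.05 (Cdc25b and Cks1b), against 21.3% of all genes in that fit, and 0 an adjusted one. A block on the replicate number left 3 with an unadjusted p under 0.05 (these and Ccnb1), against 20.6% of all genes, and 0 with an adjusted one. In none of the 45 members did the 4 cKO libraries lie clear of the 4 control libraries, whereas this held for 10.7% of all genes (4.6% lower in cKO and 6.1% higher). The mean was lower in cKO for 23 members and higher for 22, beside 49.8% lower among all genes. The log2 differences ran from -0.33 (Aurkb) to 0.25 (Ccnb1) with a median of -0.0026, and the median of all genes was 0.0007. Exact two-sided permutation tests of single members, 4 mice against 4, gave p = 0.143 (Cdc25b) at the lowest.

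A missed threshold does not show equal levels, and the intervals say how much room was left. The 95% limma interval lay within 1 log2 unit of 0 for 45 of 45 members (95.1% of all genes) and within 0.5 for 34 (75.0% of all genes). The lowest bound was -0.82, for Aurkb, and the highest 0.75, for Ube2c. Standard errors of the members ran from 0.067 to 0.28 with a median of 0.159, against 0.102 over all genes. The members varied more between mice of one group, with a median within-group SD of 0.255 log2 units against 0.145 over all genes.

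**Figure D1:**
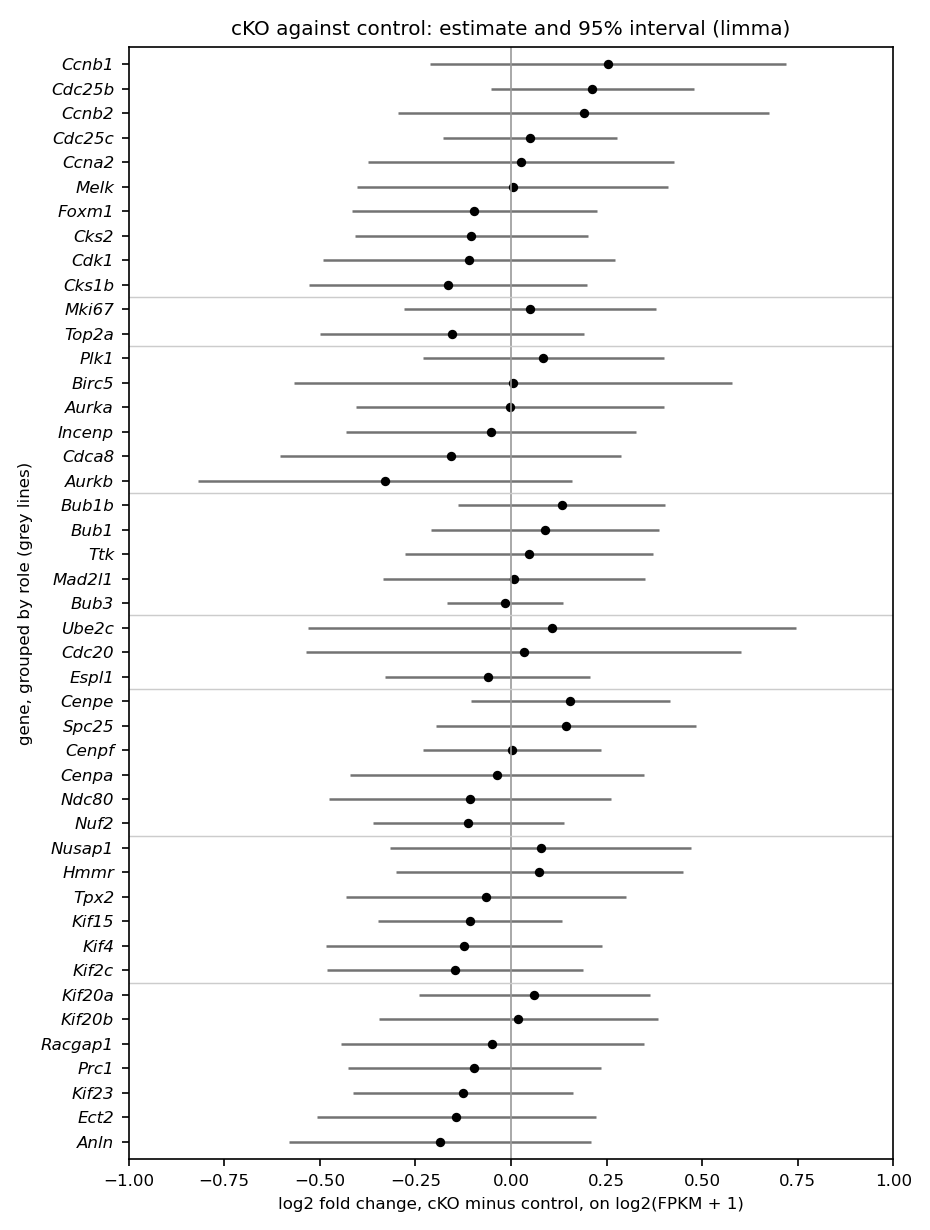
Log2 difference of each of the 45 tested members (point; x axis, cKO minus control on log2(FPKM + 1)) with its 95% limma interval (bar), grouped by role. Every interval crosses 0, and the estimates run from -0.33 for Aurkb to 0.25 for Ccnb1.

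The spread within the groups was shared by nearly all members. Deviations of each member from its group means were correlated over the 8 libraries with a median Pearson r of 0.789 over 990 pairs of members, and 989 pairs were above 0. These pairs share the same 8 libraries, and the value is a description. Racgap1 (median r 0.888 with the other members), Incenp (0.884) and Top2a (0.879) followed the others most closely. Cks1b (0.563), Ttk (0.602) and Cenpe (0.611) followed them least.

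Replicate 1 of the cKO group held the least mitosis RNA and replicate 3 the most. In cKO replicate 1 all 45 tested members were below their own mean over the 8 libraries, and in cKO replicate 3 all 45 were above it. The members' median deviation was -0.17, 0.11, -0.04 and 0.15 on the log2 scale for controls in the order of their replicate numbers, and -0.37, 0.03, 0.27 and 0.05 for cKO mice. The controls thus lay between the extremes of the cKO group. Summed over the 46 genes, the libraries held 218, 267, 259 and 311 FPKM in the control group (264 ± 38.2, SD, n = 4) and 183, 257, 329 and 271 FPKM in the cKO group (260 ± 59.9, SD, n = 4).

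Counted by gene, cKO replicate 1 was the lowest cKO library for 44 of the 45 tested members, against 26.8% of all genes, Ttk being the exception. It was the lowest of all 8 libraries for 35 members (13.4% of all genes). The third cKO replicate was the highest cKO library for 37 members (26.9% of all genes) and the highest of all 8 for 29 (13.7%). Among the controls, replicate 1 was lowest for 30 members (24.9% of all genes) and replicate 4 highest for 28 (23.7%). From cKO replicate 1 to cKO replicate 3 the members differed by 0.15 to 1.31 log2 units with a median of 0.70, whereas the median over all genes was 0.0022. The first cKO replicate had 19150336 reads on genes and the third 16123108, and the part of depth in the spread was not tested.

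Since the mice differed this much, the estimate moved with single libraries. Without cKO replicate 1 the median log2 difference of the members was 0.11, and without cKO replicate 3 it was -0.12. Within replicates 1 and 2 the cKO value was lower for 34 of 45 members (50.1% of all genes), with a median difference of -0.15. Within replicates 3 and 4 it was higher for 33 members (50.6% of all genes), with a median of 0.08.

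**Figure D2:**
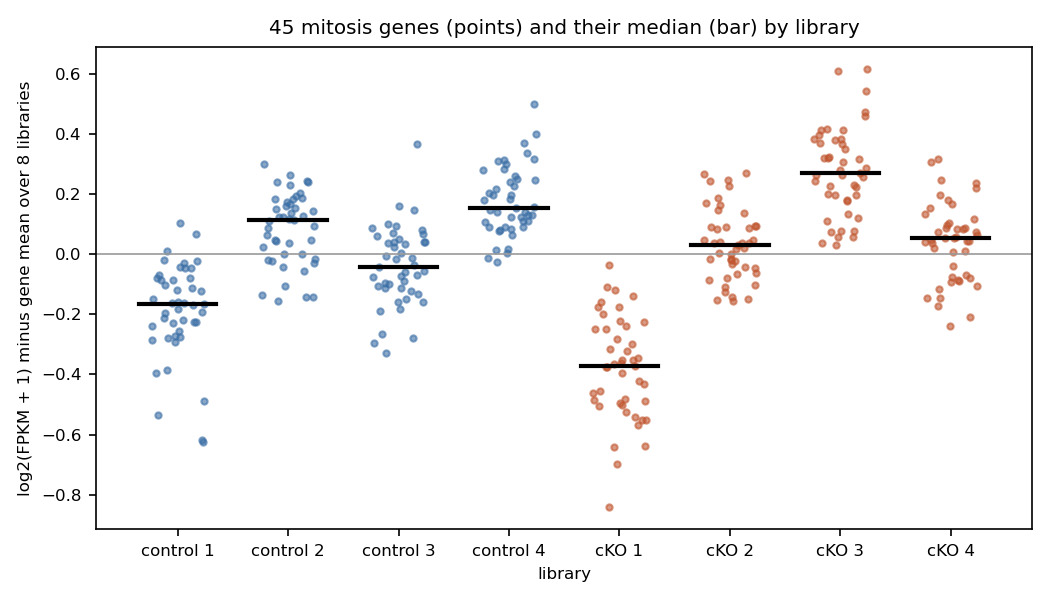
Deviation of log2(FPKM + 1) from the gene's mean over 8 libraries (y axis) for the 45 tested members (points) in each library (x axis), with the median as a bar. All points lie below 0 in cKO replicate 1 and above 0 in cKO replicate 3, and the 4 control libraries lie between them.

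Many members also shared promoter motifs. The cell cycle genes homology region (CHR, TTTGAA) is bound by the DREAM and MuvB complexes and the CCAAT box by the factor NF-Y, and both elements are known from promoters of G2 and M phase genes. RefSeq promoter windows (GRCm38.p6, 250 bases before to 50 after a transcription start) were matched by symbol for 39 of the 46 members, giving 42 windows. Ccna2, Kif20a, Cdc25c, Foxm1, Tpx2, Aurkb and Incenp had no window in the table. Both motifs were searched on both strands, TTTGAA also as TTCAAA and CCAAT also as ATTGG. The windows of Mki67, Top2a, Cdk1 and Plk1 are shown as examples picked because they held both motifs. In a list of members set by hand, these were the first 4 to do so. Ccnb1, which lacked TTTGAA, and Foxm1, without a window, stood before Plk1 in that list. The window of Mad2l1 is shown because it held neither motif. Each window reads 5′ to 3′ along the gene's own strand, and capitals mark the motif matches.
Mki67 (chr7:135716330-135716629, minus strand): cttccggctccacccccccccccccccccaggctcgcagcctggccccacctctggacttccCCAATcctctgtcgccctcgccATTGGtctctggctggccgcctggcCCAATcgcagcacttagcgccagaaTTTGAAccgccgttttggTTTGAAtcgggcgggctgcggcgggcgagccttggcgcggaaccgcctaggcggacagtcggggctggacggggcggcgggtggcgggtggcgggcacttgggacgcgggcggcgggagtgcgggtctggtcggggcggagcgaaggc
Top2a (chr11:99024140-99024439, minus strand): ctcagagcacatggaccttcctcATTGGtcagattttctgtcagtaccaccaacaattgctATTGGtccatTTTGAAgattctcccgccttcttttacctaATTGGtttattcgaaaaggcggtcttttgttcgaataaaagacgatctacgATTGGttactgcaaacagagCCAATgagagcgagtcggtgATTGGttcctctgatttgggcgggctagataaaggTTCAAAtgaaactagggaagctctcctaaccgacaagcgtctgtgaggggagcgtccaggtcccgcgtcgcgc
Cdk1 (chr10:69352863-69353162, minus strand): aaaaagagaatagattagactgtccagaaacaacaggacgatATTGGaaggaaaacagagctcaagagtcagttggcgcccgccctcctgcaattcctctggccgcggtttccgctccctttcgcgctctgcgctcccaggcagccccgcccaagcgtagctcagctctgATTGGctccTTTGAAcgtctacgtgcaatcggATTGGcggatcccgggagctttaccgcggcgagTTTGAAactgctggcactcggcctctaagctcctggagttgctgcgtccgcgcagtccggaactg
Plk1 (chr7:122159185-122159484, plus strand): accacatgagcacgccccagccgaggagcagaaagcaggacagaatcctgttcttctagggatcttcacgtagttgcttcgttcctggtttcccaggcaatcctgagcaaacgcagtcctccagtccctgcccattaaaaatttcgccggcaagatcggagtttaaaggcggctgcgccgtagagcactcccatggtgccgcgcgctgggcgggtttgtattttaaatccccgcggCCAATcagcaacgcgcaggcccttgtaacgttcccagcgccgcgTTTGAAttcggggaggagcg
Mad2l1 (chr6:66534971-66535270, plus strand): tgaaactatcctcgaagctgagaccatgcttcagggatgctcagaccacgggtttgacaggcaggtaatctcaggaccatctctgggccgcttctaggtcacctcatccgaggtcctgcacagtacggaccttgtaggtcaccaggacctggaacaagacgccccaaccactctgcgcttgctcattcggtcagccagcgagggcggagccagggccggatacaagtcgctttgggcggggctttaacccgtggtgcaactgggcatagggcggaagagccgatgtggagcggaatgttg

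TTTGAA stood in 32 of the 42 member windows (76.19%), against 17.89% of all 32851 windows of the table. CCAAT stood in 32 of 42 as well (76.19%), against 37.41% of all windows, and 1 pair of matches of the 2 motifs overlapped. Both motifs were found in 27 windows (64.29%) and in 6.953% of all windows. The matches were placed unevenly, for TTTGAA began between 60 bases before and 49 after the start in 69.05% of member windows, against 5.504% of all windows. CCAAT began within the 150 bases before the start in 73.81% of member windows, against 24.85%. With the start as position 0, the median position was -10 for the 42 TTTGAA matches and -66 for the 76 CCAAT matches.

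In the windows printed above, Mki67 had TTTGAA at positions -116 and -98, farther from the start than in most member windows, and CCAAT at -188, -141 and, on the other strand, -166. Cdk1 had TTTGAA at positions -71 and -15 and CCAAT on the other strand at -208, -80 and -48. Top2a had 6 CCAAT matches and TTTGAA at -179 and, on the other strand, at -23. Plk1 had 1 match of each, CCAAT at -14 and TTTGAA at 30. By gene, 24 of the 39 members with a window held both motifs, and Melk, Birc5, Mad2l1, Nuf2 and Nusap1 held neither. The median r of these 5 with the other members was 0.822, 0.831, 0.841, 0.775 and 0.841 in that order, within the range of the set (0.563 to 0.888). In a list of 64 other mitosis genes TTTGAA stood in 44.07% of windows and CCAAT in 66.1%. In a list of 41 DNA replication genes the shares were 10.81% for TTTGAA and 59.46% for CCAAT. A match is a description of the sequence and no evidence of binding.

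**Figure D3:**
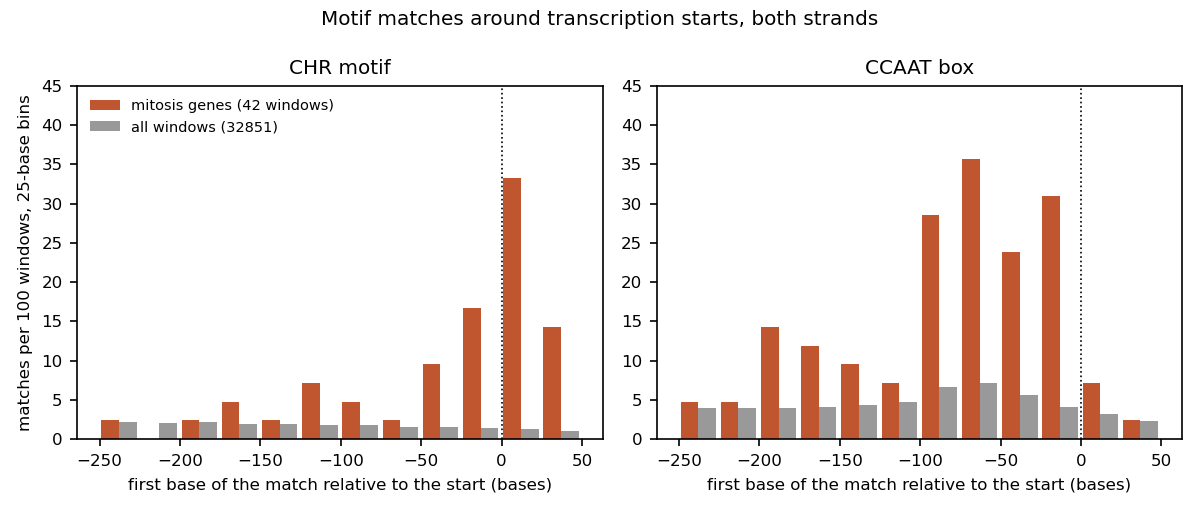
Matches per 100 promoter windows (y axis) of the CHR motif (left) and the CCAAT box (right) in 25-base bins by the position of the first base of the match relative to the transcription start (x axis), for the 42 windows of the mitosis genes and all 32851 windows. Matches in the mitosis genes are densest around the start for CHR and in the 100 bases before it for CCAAT.

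The 10 genes of the cyclin-CDK switch spanned most of the range of levels. Cks2 and Cks1b, small subunits that help CDK1 engage its substrates, averaged 33.6 and 26.8 FPKM over the 8 libraries, the highest of the set, and Cdc25c, a phosphatase that activates CDK1, averaged 0.686 FPKM. Of the 10 genes, 4 had a lower and 6 a higher mean in cKO, none passed the test, and the median log2 difference was 0.02. Cdk1 (chr10:69335146-69352938, minus strand), the kinase that starts mitosis, was measured at 5.26, 6.18, 6.82 and 6.94 FPKM in the controls, in the order of replicates 1 to 4, and at 3.97, 5.92, 8.13 and 5.57 FPKM in cKO. The same order is used for all values below. The cKO group held both the lowest and the highest library and enclosed the controls. Its log2 difference was -0.11 (SE 0.169, limma adjusted p = 0.796).

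Ccnb1 (chr13:100778650-100786570, minus strand), which encodes cyclin B1, had the largest positive difference of the set. Its control values were 1.59, 2.70, 2.63 and 2.98 FPKM, and the cKO values 1.73, 3.44, 3.99 and 3.63 FPKM. The cKO libraries other than replicate 1 were above every control library, and replicate 1 was below all controls but 1. The log2 difference was 0.25 (95% interval -0.21 to 0.72, limma adjusted p = 0.593, or 0.432 with the block of sets and 0.180 with the replicate block). With 1 library left out in turn the difference ran from 0.12 to 0.45, the highest without cKO replicate 1. Its partner gene Ccnb2 (chr9:70407692-70421547, minus strand) gave 8.03, 11.6, 13.5 and 16.3 FPKM in controls and 10.9, 11.9, 18.3 and 15.3 FPKM in cKO, with groups that overlapped and a log2 difference of 0.19 (limma adjusted p = 0.712), or 0.02 to 0.33 with a library left out.

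Cdc25b (chr2:131186949-131198497, plus strand), a phosphatase that removes the inhibitory phosphates of CDK1, had the smallest unadjusted p of the members in limma's fit across all genes, at 0.103. It stood at 1.35, 1.75, 2.15 and 2.23 FPKM in controls and at 1.99, 2.15, 2.58 and 2.51 FPKM in cKO. The lower cKO libraries lay among the higher control libraries, and the log2 difference was 0.21 (limma adjusted p = 0.411, or 0.155 with the block of sets and 0.193 with the replicate block). With a library left out the difference ran from 0.12 to 0.27. Exons of Cdc25b overlap those of Spef1 on the other strand, and whether the counting used strand is not given in the sources used here.

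Cks1b (chr3:89415472-89418383, minus strand) was among the 3 members with the largest negative differences. Controls held 22.4, 23.8, 34.3 and 33.6 FPKM and cKO libraries 20.6, 23.7, 28.8 and 27.3 FPKM. In both groups replicates 1 and 2 were below replicates 3 and 4, and the log2 difference was -0.17 (limma adjusted p = 0.662, or 0.207 with the block of sets and 0.225 with the replicate block). With a library left out the difference ran from -0.27 to -0.07. Cks2 (chr13:51645232-51650660, plus strand), the most abundant member, was measured at 31.3, 32.3, 33.8 and 41.6 FPKM in controls and 25.6, 30.4, 38.3 and 35.4 FPKM in cKO. Its groups overlapped, with a log2 difference of -0.10 (limma adjusted p = 0.753).

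Foxm1 (chr6:128362967-128376146, plus strand) encodes the transcription factor that activates many G2 and M phase genes. It was at 4.39, 4.51, 3.64 and 4.24 FPKM in controls and 2.82, 3.498, 5.21 and 4.20 FPKM in cKO. The controls lay close together, whereas cKO replicate 3 held 1.85 times the value of cKO replicate 1. The log2 difference was -0.10 (limma adjusted p = 0.786). Ccna2, the cyclin A2 gene, averaged 6.34 FPKM, and Melk, a kinase gene of proliferating cells, 4.30 FPKM, with log2 differences of 0.03 and 0.01.

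Neither of the 2 classical markers of cycling cells passed the test. Mki67 (chr7:135689784-135716361, minus strand) encodes Ki-67, the coat protein of mitotic chromosomes that is stained to count proliferating cells. It was measured at 11.3, 14.2, 9.99 and 13.4 FPKM in controls (12.2 ± 1.91, SD, n = 4) and 9.44, 13.7, 14.6 and 13.2 FPKM in cKO (12.7 ± 2.27, SD, n = 4). Apart from replicate 1, the cKO libraries lay within or just above the control range. The log2 difference was 0.05, with a 95% interval of -0.28 to 0.38 (limma adjusted p = 0.904). By staining at the same stage, the paper reports fewer Ki-67-positive cells in cKO alveoli. That is a count of cells by protein, whereas the values here are RNA of the whole preparation.

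Top2a (chr11:98992943-99024189, minus strand), the topoisomerase that untangles sister chromatids, was at 8.98, 11.1, 8.77 and 10.8 FPKM in controls and 6.27, 9.06, 11.3 and 9.02 FPKM in cKO. Again cKO replicate 1 was the lowest and cKO replicate 3 the highest of the 8 libraries. The log2 difference was -0.15 (95% interval -0.50 to 0.19, limma adjusted p = 0.669), or -0.27 to -0.01 with a library left out.

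**Figure D4:**
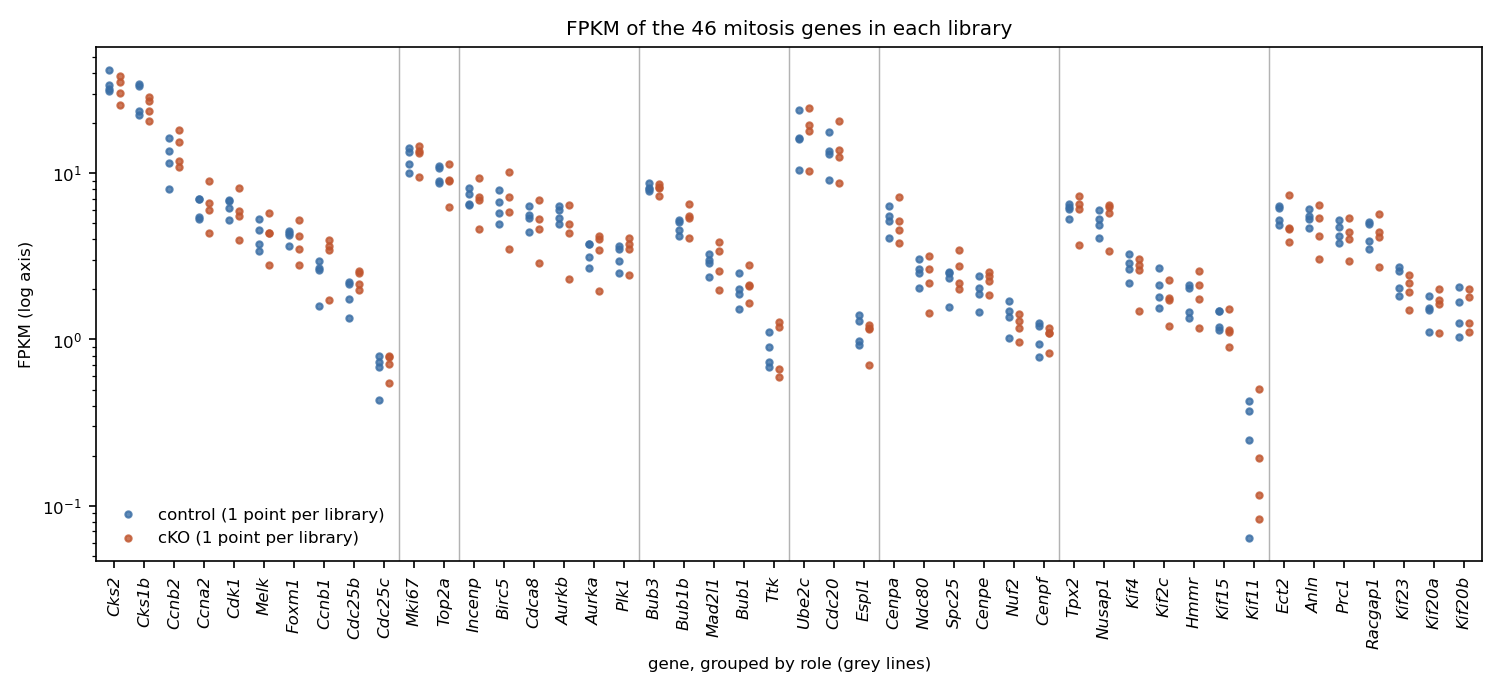
FPKM (y axis, log scale) of the 46 genes in each of the 8 libraries (1 point per library, control left and cKO right for each gene), grouped by role. The levels run from 33.6 FPKM on average for Cks2 to 0.251 FPKM for Kif11, and control and cKO points overlap for every gene.

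Among the mitotic kinases and chromosomal passengers, 4 of 6 genes had a lower mean in cKO and none passed the test. Of the 8 role groups this one had the lowest median deviation in cKO replicate 1, at -0.59, against 0.35 in cKO replicate 3. Aurkb (chr11:69045647-69051664, plus strand) encodes the kinase that corrects faulty kinetochore attachments, and it had the most negative difference of the set. Controls held 4.96, 6.00, 5.35 and 6.33 FPKM and cKO libraries 2.30, 4.94, 6.41 and 4.35 FPKM. Every cKO library but replicate 3 was below every control library, and replicate 3 was above all of them. The log2 difference was -0.33 (95% interval -0.82 to 0.16, limma adjusted p = 0.496), and with 1 library left out in turn it ran from -0.49 to -0.10.

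Plk1 (chr7:122159439-122169873, plus strand), a kinase needed from mitotic entry to cytokinesis, was at 2.52, 3.65, 2.99 and 3.51 FPKM in controls and 2.43, 3.78, 3.49 and 4.06 FPKM in cKO. Replicate 1 was the lowest library in both groups, and the log2 difference was 0.08 (limma adjusted p = 0.809), or 0.0066 to 0.20 with a library left out. Birc5, the gene of survivin, had the widest spread of the tested members among the cKO libraries, 2.90-fold from 3.49 to 10.1 FPKM, with controls at 4.94 to 7.96 FPKM. Incenp, Cdca8 and Aurka, which encode the scaffold and borealin subunits of the passenger complex and the centrosomal kinase Aurora A, had log2 differences of -0.05, -0.16 and -0.0026.

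Of the 5 spindle checkpoint genes, 1 had a lower and 4 a higher mean in cKO, and none passed the test. Bub1 (chr2:127801122-127831865, minus strand), a kinetochore kinase that recruits checkpoint proteins, was measured at 1.87, 2.002, 1.54 and 2.50 FPKM in controls and 1.65, 2.13, 2.81 and 2.09 FPKM in cKO. The groups overlapped, and the log2 difference was 0.09 (limma adjusted p = 0.787). Mad2l1 (chr6:66535390-66547220, plus strand), whose product holds CDC20 inactive, was at 2.39, 3.0, 2.87 and 3.28 FPKM in controls and 1.99, 3.42, 3.84 and 2.58 FPKM in cKO. The cKO values again enclosed the controls, and the log2 difference was 0.01 (limma adjusted p = 0.984).

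Bub3, which encodes an adaptor of the checkpoint that also has roles outside mitosis, varied least of all members. It stood at 7.83, 8.12, 8.04 and 8.71 FPKM in controls and 7.29, 8.25, 8.62 and 8.18 FPKM in cKO. Even this narrow range had cKO replicate 1 as the lowest library. Its interval, from -0.17 to 0.14, was the narrowest of the set. Bub1b and Ttk, the genes of the kinases BUBR1 and MPS1, had log2 differences of 0.13 and 0.05, and Ttk was the 1 tested member with its lowest cKO value in replicate 4.

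None of the 3 anaphase triggers passed the test, and Cdc20 and Ube2c differed widely between mice of one group. Cdc20 (chr4:118432901-118437352, minus strand), the activator of the APC/C, was at 9.11, 13.0, 13.6 and 17.7 FPKM in controls and 8.68, 12.6, 20.7 and 13.8 FPKM in cKO. The cKO libraries enclosed the controls, and the log2 difference was 0.03 (limma adjusted p = 0.965). Exons of Cdc20 overlap those of Elovl1 on the other strand, which held up to 2318 reads in a library, so part of the reads could belong to that gene. The same uncertainty holds for Ccna2 (overlapping Exosc9), Kif20a (Cdc23), Kif4 (Pdzd11), Nusap1 (Oip5), Prc1 (Rccd1) and Cdca8 (9930104L06Rik).

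Ube2c (chr2:164769898-164778822, plus strand), the ubiquitin-conjugating enzyme that works with the APC/C, was at 10.5, 16.3, 16.0 and 24.0 FPKM in controls and 10.4, 17.9, 24.8 and 19.6 FPKM in cKO. Replicate 1 was the lowest library of both groups, at less than the level of every other library. With an SE of 0.28 its log2 difference of 0.11 was the least certain of the set (95% interval -0.53 to 0.75, limma adjusted p = 0.889). Espl1, the gene of separase, which cuts the cohesin ring, held 0.983, 1.41, 0.928 and 1.29 FPKM in controls and 0.705, 1.15, 1.18 and 1.22 FPKM in cKO, with a log2 difference of -0.06.

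The centromere and kinetochore genes split evenly, with 3 lower and 3 higher in cKO by the mean and none past the test. Ndc80 (chr17:71496100-71526857, minus strand), a subunit of the complex that grips microtubule ends, was at 2.04, 2.64, 2.51 and 3.05 FPKM in controls and 1.44, 2.64, 3.16 and 2.17 FPKM in cKO. Replicates 1 and 3 of cKO were the lowest and highest of the 8 libraries, and the log2 difference was -0.11 (limma adjusted p = 0.793). Its partners Nuf2 and Spc25 had differences of -0.11 and 0.14.

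Cenpf (chr1:189640606-189688086, minus strand), a large kinetochore protein gene, stood at 0.946, 1.201, 0.789 and 1.26 FPKM in controls and 0.8291, 1.17, 1.09 and 1.09 FPKM in cKO. The group means were 1.05 FPKM in both groups, and the log2 difference was 0.0027 (95% interval -0.23 to 0.24, limma adjusted p = 0.994). Cenpe, the gene of a kinetochore motor, had a log2 difference of 0.16 and Cenpa, that of the centromeric histone, -0.04.

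Of the 6 tested genes of spindle motors and binders, 4 had a lower and 2 a higher mean in cKO. Tpx2 (chr2:152847964-152895321, plus strand), which activates Aurora A on the spindle, was at 5.34, 6.13, 6.30 and 6.56 FPKM in controls and 3.71, 6.13, 7.26 and 6.49 FPKM in cKO. Only cKO replicate 1 lay far from the rest, and the log2 difference was -0.07 (limma adjusted p = 0.878). Kif15, Kif4 and Kif2c, the genes of a spindle motor, a chromosome-bound motor and a microtubule depolymerase, had log2 differences of -0.11, -0.12 and -0.15. Nusap1 and Hmmr, which encode spindle microtubule binders, had differences of 0.08 and 0.07.

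Kif11 (chr19:37376403-37421859, plus strand), the motor that pushes the spindle poles apart, stood apart from the set. It held only 32, 48, 8 and 60 reads in the controls and 12, 62, 23 and 16 reads in cKO, or 0.247, 0.371, 0.0640 and 0.428 FPKM and 0.0833, 0.504, 0.194 and 0.115 FPKM. These values spread 6.70-fold within the controls and 6.05-fold within cKO, wider than for any tested member, and the highest library was cKO replicate 2 rather than replicate 3. The gene missed the filter and was left out of the fit, and the exact two-sided permutation test of the group means gave p = 0.686. The neighbouring entry in level, Cdc25c, held 37 to 73 reads.

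Of the 7 midzone and cytokinesis genes, 5 had a lower and 2 a higher mean in cKO, beside 49.8% lower among all genes, and none passed the test. Their median deviation was -0.38, 0.04, 0.27 and -0.09 in cKO replicates 1 to 4, so the cKO libraries went both ways. Prc1 (chr7:80294450-80316259, plus strand), which bundles the microtubules of the central spindle, was at 4.22, 5.26, 3.83 and 4.72 FPKM in controls and 2.96, 4.44, 5.40 and 4.02 FPKM in cKO. The log2 difference was -0.10 (limma adjusted p = 0.792), and the groups overlapped. Anln (chr9:22332012-22389188, minus strand), the scaffold of the contractile ring, was at 5.28, 6.09, 4.70 and 5.56 FPKM in controls and 3.04, 5.36, 6.46 and 4.18 FPKM in cKO. Replicates 1 and 4 of cKO lay below all controls and replicate 3 above them, and the log2 difference was -0.19 (95% interval -0.58 to 0.21, limma adjusted p = 0.652), or -0.32 to -0.03 with a library left out. Ect2 and Racgap1, which switch on RhoA at the cell equator, had log2 differences of -0.14 and -0.05, and the kinesin genes Kif23, Kif20a and Kif20b of -0.12, 0.06 and 0.02.

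Neighbouring parts of the cell cycle programme were read beside the members. Of 64 other mitosis genes, 60 were tested and 1 passed an unadjusted limma p under 0.05, against 16.4% of all genes. This was Cenph, with a log2 difference of -0.28 (adjusted p = 0.239). The same cKO libraries were at the ends as in the members, while replicates 2 and 4 changed places. The lowest cKO value was in replicate 1 for 53 of the 64 genes (26.8% of all genes) and the highest in replicate 3 for 54 (26.9%). None of the 18 condensin and cohesin genes and 1 of the 16 APC/C subunit genes passed the unadjusted threshold (16.4% of all genes). None of either list passed the adjusted one (0.892% of all genes).

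DNA replication genes act in S phase, before mitosis. The mean in cKO was lower for 37 of 41 replication genes and for 23 of 45 mitosis genes, beside 49.8% of all genes, and the median log2 differences were -0.15 and -0.0026. Whether the lists differ was not tested. At an unadjusted limma p under 0.05, 6 replication genes were lower and 0 higher (7.53% and 8.85% of all genes), and none passed at an adjusted p under 0.05. Mcm7, a subunit of the replicative helicase, had a log2 difference of -0.32 (adjusted p = 0.130). Among the cKO libraries, 38 of 41 replication genes were also highest in replicate 3 (26.9% of all genes). Their median deviation was 0.20 there against -0.26, -0.12 and -0.16 in cKO replicates 1, 2 and 4.

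Among the 22 E2F, DREAM and CCAAT regulators, which include the factors that bind the motifs above, 1 gene was lower and 1 higher at an unadjusted limma p under 0.05, beside 7.53% and 8.85% of all genes, and none passed the adjusted threshold. E2f1, an activator of S phase genes, held 5.76, 6.35, 5.87 and 6.77 FPKM in controls and 4.45, 4.56, 5.47 and 4.30 FPKM in cKO. Its groups did not overlap, and the log2 difference was -0.34 (adjusted p = 0.0996). Nfyb, a subunit of NF-Y, had a log2 difference of 0.17 (adjusted p = 0.285). Of the G1 cyclins and CDK inhibitors, Cdkn1a (p21) was the 1 gene with an unadjusted p under 0.05, at a log2 difference of -0.30 (limma adjusted p = 0.223). Of 12 milk genes, 5 rose at a limma adjusted p under 0.05 (0.892% of all genes), and the median log2 difference of the 12 was 0.91. These calls were lost without control replicate 4, where limma called 0 genes of all at an adjusted p under 0.05 and 14.1% at an unadjusted one, and without control replicate 2 it called 1 gene of all.

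**Figure D5:**
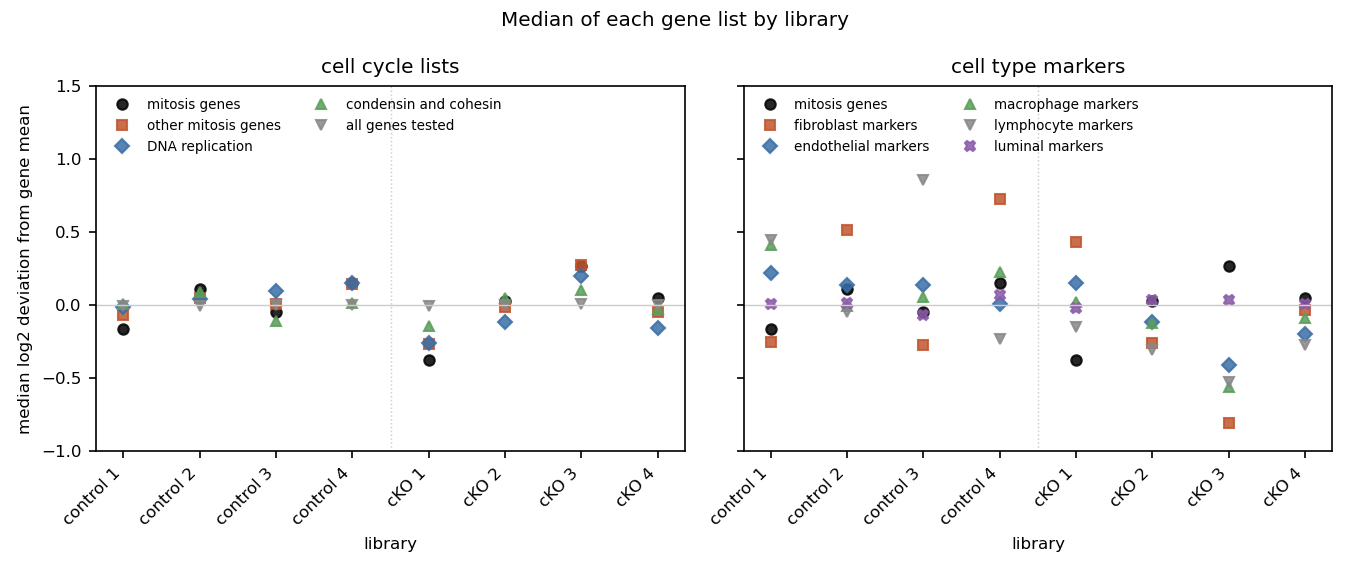
Median log2 deviation of each gene list from the genes' means (y axis) in each library (x axis), for cell cycle lists (left) and cell type markers (right), with the mitosis genes in both panels. The 4 cell cycle lists plotted on the left (mitosis, other mitosis, DNA replication, condensin and cohesin) are lowest in cKO replicate 1 and highest in cKO replicate 3, where fibroblast, endothelial and macrophage markers are lowest. In the cell cycle lists not plotted, cKO replicate 1 is again lowest. G1 cyclins and CDK inhibitors are highest in cKO replicate 3. APC/C subunits are highest in control replicate 3, and the E2F, DREAM and CCAAT regulators in control replicate 2.

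Markers of other cell types also moved between the libraries. The 6 fibroblast markers summed to 441, 773, 445 and 920 FPKM in controls and 713, 433, 299 and 520 FPKM in cKO. Within cKO the library with the least mitosis RNA thus had the most fibroblast RNA and the library with the most mitosis RNA the least, whereas in controls replicate 4 was highest in both. Endothelial markers (6 genes) summed to 72.2 to 82.3 FPKM in controls and 51.5 to 78.6 FPKM in cKO, and macrophage markers (7 genes) to 281 to 383 FPKM and 171 to 285 FPKM, with cKO replicate 3 lowest for each. Lymphocyte markers (10 genes) summed to 6.37 to 38.4 FPKM in controls and 3.73 to 7.32 FPKM in cKO. Every tested gene of these lists (6 fibroblast, 6 endothelial, 7 macrophage, 8 lymphocyte) had a lower mean in cKO, beside 49.8% of all genes. At an unadjusted limma p under 0.05, 0, 3, 4 and 4 were lower in that order and 0 higher (7.53% and 8.85% of all genes). Past limma's adjusted threshold was 1 endothelial gene (0.892% of all genes). Luminal markers (9 genes) had medians within 0.07 log2 units of 0 in every library. Myoepithelial markers (8 genes) had medians of -0.18, -0.10, 0.13 and 0.15 in controls and -0.20, -0.03, 0.04 and 0.23 in cKO, with replicate 1 lowest in both groups. Single genes went further, with log2 differences of -0.18 to 0.82 among luminal and -0.42 to 0.85 among myoepithelial markers. At an unadjusted limma p under 0.05, 0 luminal genes were lower and 1 higher, and 2 myoepithelial genes lower and 1 higher. The shares of all genes were 7.53% lower and 8.85% higher, and no gene of either list passed the adjusted threshold. Erythroid markers (5 of 6 genes tested) had medians of 0.10, 0.14, 0.09 and 0.43 in controls and 0.31, -0.36, -0.39 and -0.40 in cKO. Adipocyte markers (7 genes) summed to 87.0 to 133 FPKM in controls and 109 to 142 FPKM in cKO, and 1 of the 5 genes tested passed limma's adjusted threshold (0.892% of all genes). Genes of the response to tissue digestion (10 genes) had a median of 0.69 in cKO replicate 4 and of -0.39 to 0.07 in the other libraries. The part of these cell types, or of the digestion response, in the spread of the mitosis genes was not tested.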

How the data were processed

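The 8 libraries were made with a NEBNext Ultra kit from total RNA of mammary epithelial cells. The authors used FastQC for read quality and Hisat2 for mapping to GRCm38, and they computed the deposited FPKM. The processing notes also name StringTie 1.3.3b, featureCounts 1.5.0-p3 and the build mm9. Gene coordinates of all 46 members equal those of GENCODE vM21 on GRCm38, which are the ones printed. FPKM times gene length gave whole reads for 100% of values (tolerance 0.01 of a read), so the depth is known. Counting error and variation between mice were not separated. Differences on the log2(FPKM + 1) scale came from limma 3.58.1, run in R 4.3.3 (empirical Bayes with trend, Benjamini-Hochberg adjustment over 15143 genes with a mean of at least 0.5 FPKM). The script was tested on simulated data. The members and lists were chosen with earlier results of these data known. Named genes were 17 members set by hand, members past the adjusted threshold, the 3 largest differences each way, the highest and lowest level, at most 4 genes by p in other lists, and Bmpr1a. Other members are given by value for completeness. Alternatives were a pseudocount of 0.1, other scalings (TPM with and without the milk genes), other filters, no trend, limma-voom on recovered reads, the replicate block and each library left out in turn. A block that sets replicates 1 and 2 apart from the others, and a fit without both replicates 1, were added after seeing the data. Exons of 13 members overlap another gene in 14 pairs, and strand use in counting is not given in the sources used here.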

Additional observations from a re-analysis of the deposited data

Results flagged for a closer look

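Of 96 groups of 4 libraries tested for a value that stands far from the other 3, 2 were flagged, and chance alone flags about 1 in 20 groups, or 4.8. Espl1, the separase gene, was far lower in cKO replicate 1, at 0.705 FPKM, than in the other cKO libraries, at 1.15 to 1.22 FPKM. Control replicate 4 had 18778823 reads on genes, and the other control libraries had 16456480 to 16642619.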

How the results depend on the processing

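No member passed an adjusted p under 0.05 in limma or limma-voom under any of the 20 alternatives. The median log2 difference of the members ran from -0.12 (-0.1228) to 0.11 (0.1061) with a library left out. Its direction thus depended on single libraries. Members with an unadjusted p under 0.05 numbered 0 to 2 with a library left out (2 without cKO replicate 1, against 15.7% of all genes, and 2 without cKO replicate 3, against 16.6%), 1 without both replicates numbered 1 (12.9%), and 2 with replicates 1 and 2 against 3 and 4 as a block (21.3%). With the replicate block the count was 3, with 20.6% of all genes called in the same fit, and with the block in limma-voom it was 2 (22.4%). Not every same-numbered pair of libraries passed 0.1, so the numbers were not taken as pairs: deviations of same-numbered libraries over all genes correlated at 0.137, 0.11, 0.116 and 0.080. All 8 correlations between groups within replicates 1 and 2 or within 3 and 4 were above 0 (0.08 to 0.178), and all 8 across these sets were below 0 (-0.21 to -0.072). The block calls were Ccnb1 and Cdc25b higher and, with the FPKM alone, Cks1b lower. Members lower in every cKO library numbered 0 to 3, with 3 (Aurkb, Kif15, Ect2) only without cKO replicate 3. The share of all genes without cKO replicate 3 was not counted. The 4.6% given above is for all 8 libraries, so these 3 have no background beside them.

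Over 400 refits of 20 members, 367 kept direction and call and 33 turned direction, with a lowest adjusted p of 0.118. TPM turned Mki67 (-0.0091), Mad2l1 (-0.0373), Cdc20 (-0.0248) and Cenpf (-0.0306). TPM without milk genes turned Mad2l1 (-0.0104) and Cenpf (-0.012), limma-voom Mad2l1 (-0.0161) and Cenpf (-0.0002), and limma-voom with the replicate block Cenpf (-0.008). Without both replicates numbered 1, Foxm1 (0.0383), Tpx2 (0.0543) and Prc1 (0.0045) turned. With a library left out the differences ran from -0.0363 to 0.175 for Mki67, -0.2556 to 0.037 for Cdk1, -0.2143 to 0.0196 for Foxm1, -0.003 to 0.1704 for Bub1, -0.0967 to 0.1345 for Mad2l1, -0.167 to 0.2219 for Cdc20, -0.0827 to 0.3385 for Ube2c, -0.0602 to 0.0559 for Cenpf, -0.22 to 0.0375 for Ndc80, -0.1633 to 0.1066 for Tpx2, -0.2022 to 0.0285 for Prc1 and -0.1866 to 0.0012 for Cks2. Over all genes, adjusted calls numbered 135, but 50 with the replicate block, 10 without a filter, 252 in limma-voom, 680 in limma-voom with the block, 442 with the block of sets, 24 without both replicates numbered 1 and 0 to 78 with a library left out. The causes were not tested.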
